A study of Homo sapiens with 4 samples.

Results

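The G1 cyclins, their kinases and the RB pocket proteins were examined in NGP cells exposed to Nutlin-3 or to its solvent. The set comprised 10 genes of the 25693 human genes counted. They were the D-type cyclins CCND1, CCND2 and CCND3, the kinases CDK6 and CDK2, the E-type cyclins CCNE1 and CCNE2, and the pocket proteins RB1, RBL1 and RBL2. Members were taken by gene symbol, and all 10 were found by their Ensembl identifier. NGP is an established human neuroblastoma line with amplified MYCN. In every library the cells had been synchronised by serum starvation. One group then received Nutlin-3, which blocks the binding of MDM2 to p53, for 24 h, and the other received ethanol for 24 h. RNA was read from the 3' end on the ddSeq droplet device in 4 libraries, 2 per treatment, of which 1 carried ERCC spike-in RNAs diluted 1000-fold and the other 10000-fold. The dose of Nutlin-3 is not given in the sources used here.

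Entry into S phase is governed by these proteins. D-type cyclins bind CDK4 or CDK6, E-type cyclins bind CDK2, and the active kinases phosphorylate RB1 and its relatives RBL1 (p107) and RBL2 (p130). Unphosphorylated pocket proteins hold back E2F transcription factors, and RBL1 or RBL2 does so as part of the DREAM complex with the MuvB core. The p53 target CDKN1A (p21) inhibits these kinases, which links p53 to the pocket proteins.

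Promoter letters were searched because CCNE1, CCNE2 and RBL1 are known E2F targets. The search covered the 250 bases before each start in the RefSeq promoter table (GRCh38.p14), on both strands. The E2F motif was spelled TTTCCCGC, TTTGGCGC, TTTGCCGC or TTTCGCGC, and the CHR motif, a cell cycle element, TTTGAA. The table holds 10 windows of 6 members (CCND3, CDK6, CCNE1, RB1, RBL1 and RBL2). That of RB1 lies inside the gene, 172724 bases from its 5' end in GENCODE. Windows of CCND3 lie 1669, 108549 and 111152 bases from the 5' end of that gene. A window of CDK6 lies 2635 bases and a window of RBL2 1642 bases from theirs. The shares that follow include these windows. RBL1 was the member with an E2F match, with 1 of the 10 windows against 2.79% of all 35116 windows. CHR letters were in 0 of the 10 windows, against 13.3% of all. The RBL1 window (chr20:37095998-37096247, minus strand) is shown with that of E2F1 (chr20:33686386-33686635, minus strand), a gene of the same pathway that also has a pair of matches. Each is printed 5' to 3' with the matches in capitals.
RBL1: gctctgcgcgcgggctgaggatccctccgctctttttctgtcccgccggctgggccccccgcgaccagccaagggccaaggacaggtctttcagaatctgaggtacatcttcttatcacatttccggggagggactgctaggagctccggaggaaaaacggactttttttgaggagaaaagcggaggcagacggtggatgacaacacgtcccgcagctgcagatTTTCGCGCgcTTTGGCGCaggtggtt
E2F1: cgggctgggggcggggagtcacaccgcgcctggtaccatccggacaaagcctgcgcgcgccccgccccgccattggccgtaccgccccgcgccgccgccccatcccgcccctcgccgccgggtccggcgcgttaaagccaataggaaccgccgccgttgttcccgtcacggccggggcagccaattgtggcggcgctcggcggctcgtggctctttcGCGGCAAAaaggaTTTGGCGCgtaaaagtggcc
In RBL1 the letters TTTCGCGC lay 26 to 19 bases before the start and TTTGGCGC 16 to 9 bases before it, with no overlap. In E2F1 they were TTTGCCGC on the opposite strand, 33 to 26 bases before the start, and TTTGGCGC at 20 to 13. These are matches of letters and not measured binding.

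The deposited table has 500 columns, each named by 12 bases and a word for its treatment. Since no name tells the library, the 250 columns of each treatment were summed to 1 pool, no test between treatments was possible, and no difference below has a replicate check. The pools held 1342134 human counts in ethanol and 1301232 in Nutlin-3. In each, 113 large columns with over 4000 counts (5268 to 13472 human counts) carried most of the total, and the 137 small columns held 249 to 3588. Of the 250 names, 219 occurred in both treatments, among them all 113 names of the large columns. Because names recur and counts within a column are nearly all 1, the values are called columns and not cells. All 11 neuroblastoma markers were seen in both pools, with 104 to 559 counts each. Summed counts in ethanol and Nutlin-3 were 70 and 62 for 3 fibroblast markers measured, 17 and 21 for 2 epithelial markers, 1 and 2 for 1 endothelial marker, and 0 and 4 for 1 immune marker. The part of such cells in the results was not tested. As a check of the treatment, CDKN1A was at 70 (ethanol) and 188 counts (Nutlin-3), and MDM2, another p53 target, 315 and 504.

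Across the 10 members there was no common direction. Relative to ethanol, 5 members were lower in Nutlin-3 and 5 higher, where of the 14830 genes that passed the filter on low counts 50.3% were lower and 49.7% higher. The members' count was thus near the background. The median log2 fold change of the members was -0.0048, and that of all those genes was -0.0011. Past a log2 fold change of 0.5 were CCND2 and CCNE1 on the higher side (2 of 10, against 9.47% of all genes) and CCNE2 on the lower side (1 of 10, against 7.50%). CCND2 passed the filter through its Nutlin-3 pool alone. Without it, 5 of 9 members were lower, 1 was at or above 0.5 and the median was -0.056. Log2 fold changes were computed with 0.5 counts added to each sum. Their 95% intervals, like the Poisson intervals of sums, assume independent counts and cover counting error under that assumption only. With ERCC counts as the library size, scaling lowered every value, moved the median of all genes to -0.47, and left CCND2 (1.90) and CCNE1 (0.32) as the members still higher. CCND1 (-0.37), CCND3 (-0.42) and CDK6 (-0.31) were then below 0. Under that scaling 8 of 10 members were lower, against 89.7% of all genes. The ERCC counts were 2989 in the ethanol pool and 4007 in the Nutlin-3 pool. Each pool joins libraries with ERCC diluted 1000-fold and 10000-fold, and the part of each library in a pool is not known. The ERCC sums may follow that mix, so no change is read from this scaling.

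The classes of column gave different counts. In the large columns 6 of 10 members were lower and 4 higher (50% of all genes on each side). Of these, 1 was at or below -0.5 (CCNE2, against 7.15% of all genes) and 2 at or above 0.5 (CCND2 and CCNE1, against 9.17%). CCND2 again passed the filter through its Nutlin-3 pool alone. Without it, 6 of 9 members were lower, 1 was at or above 0.5 and the median was -0.11. In the small columns 4 members passed the filter, and 1 was lower (48.0% of the 4762 genes that passed there) and 3 higher (52.0%). RB1 was at or below -0.5 (17.7% of those genes) and CDK6 and RBL2 at or above 0.5 (18.2%), each with a counting interval that includes 0. RB1 passed there through its ethanol pool alone and RBL2 through its Nutlin-3 pool alone, each the pool where it was higher. No direction is read from these 2 genes. CCND3 (6 counts against 3 in ethanol) and CDK2 (2 against 12) did not pass that filter.

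**Figure D1:**
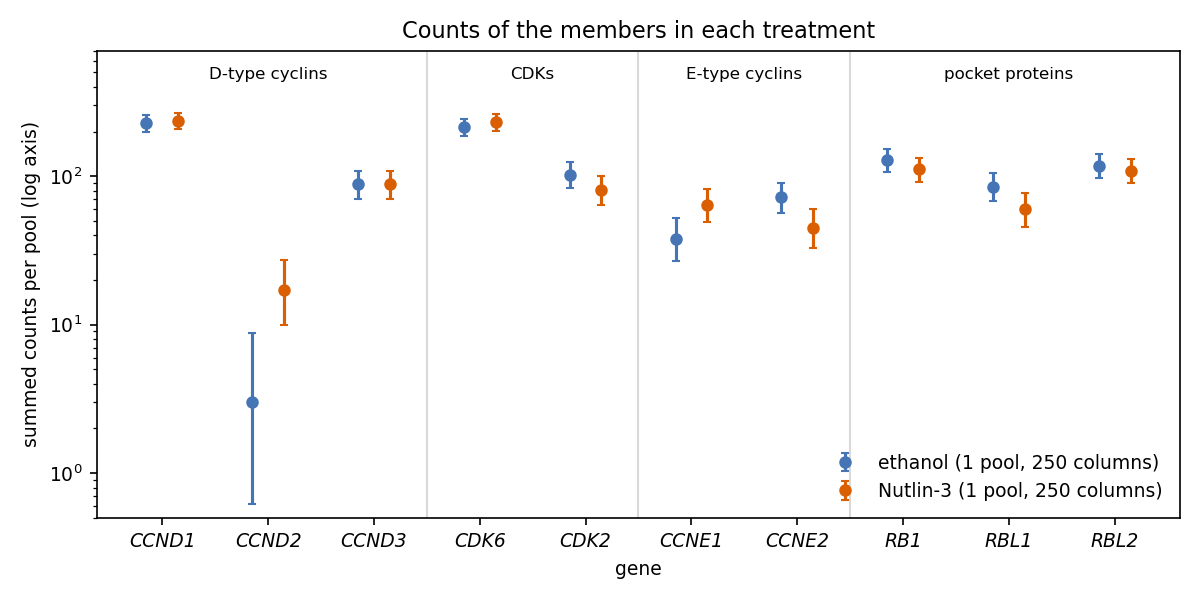
Summed counts of each member (vertical log axis) in the ethanol pool (blue) and the Nutlin-3 pool (orange), with 95% Poisson intervals. The pools cross over at the E-type cyclins, where CCNE1 was at 38 and 64 counts and CCNE2 at 72 and 45.

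The E-type cyclins, which activate CDK2 at the end of G1, differed in opposite directions. CCNE1 (ENSG00000105173, chromosome 19, 29811898 to 29824308 in GRCh38) had 38 counts in ethanol (95% Poisson interval 26.9 to 52.2) and 64 in Nutlin-3 (49.3 to 81.7). Its log2 fold change was 0.79 (95% counting interval 0.20 to 1.42). CCNE2 (ENSG00000175305, chromosome 8, 94879770 to 94896678) had 72 counts in ethanol (56.3 to 90.7) and 45 in Nutlin-3 (32.8 to 60.2). The log2 fold change of this gene was -0.63 (-1.20 to -0.075). So the gene with more counts of the pair was CCNE2 in the ethanol pool and CCNE1 in the Nutlin-3 pool, while the sum of the pair was 110 and 109 counts. CCNE1 made up 34.5% of that sum in the ethanol pool (95% exact binomial interval, as for all shares here, 25.7 to 44.2). In the Nutlin-3 pool it made up 58.7% (48.9 to 68.1), and these intervals did not overlap. A share within a pair does not depend on how the pools are scaled. It is made of the same counts as the folds of CCNE1 and CCNE2, so it adds no evidence to them. Pairs of other genes with like counts were not compared.

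Nearly all E-type counts lay in the large columns, where a count can be read as presence in a column. Intervals of such shares treat the columns of 1 pool as independent and cover counting error only, and presence is no evidence beside the sums, since few columns held more than 1 count of these genes. CCNE1 was present in 38 of 113 large ethanol columns (33.6%, 25 to 43.1) and in 61 of 113 large Nutlin-3 columns (54.0%, 44.4 to 63.4). It never exceeded 1 count in a column. CCNE2 was present in 66 of 113 in ethanol (58.4%, 48.8 to 67.6) and in 45 of 113 in Nutlin-3 (39.8%, 30.7 to 49.5). Depth was alike, the median large column holding 10738 human counts in ethanol and 10617 in Nutlin-3. In the small columns the ethanol and Nutlin-3 pools held 0 and 3 counts of CCNE1 and 3 and 0 of CCNE2, too few for a fold.

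**Figure D2:**
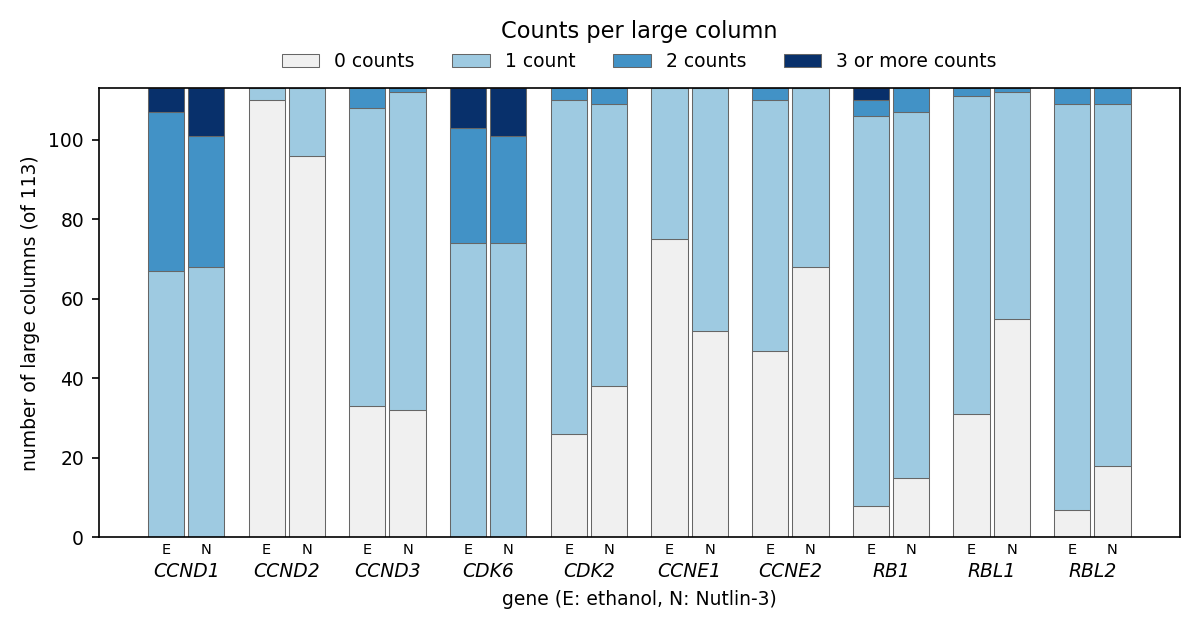
Number of the 113 large columns per treatment (vertical axis) that held 0, 1, 2 or at least 3 counts of each member, with ethanol (E) and Nutlin-3 (N) side by side. Columns without CCNE1 numbered 75 in ethanol and 52 in Nutlin-3, and columns without RBL1 31 and 55.

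Among the pocket proteins, RBL1 had the largest fold, and those of RB1 and RBL2 were small. RBL1 (ENSG00000080839, chromosome 20, 36996349 to 37095995) encodes p107, which binds repressor E2Fs in cycling cells. It had 85 counts in ethanol (67.9 to 105) and 60 in Nutlin-3 (45.8 to 77.2). The log2 fold change was -0.45 (-0.96 to 0.037), an interval that includes 0. In the large columns it was present in 82 of 113 in ethanol (72.6%, 63.4 to 80.5) and in 58 of 113 in Nutlin-3 (51.3%, 41.7 to 60.8). These are nearly the same numbers as the large-column sums of RBL1, 84 and 59 counts, and the fold of those sums was -0.47 (-0.98 to 0.028).

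RB1 (ENSG00000139687, chromosome 13, 48303726 to 48599436), the retinoblastoma tumour suppressor, had 128 counts in ethanol (107 to 152) and 111 in Nutlin-3 (91.3 to 134). Its log2 fold change was -0.16 (-0.54 to 0.22). RBL2 (ENSG00000103479, chromosome 16, 53433977 to 53491649), which encodes p130, the pocket protein typical of resting cells, had 117 counts in ethanol (96.8 to 140) and 109 in Nutlin-3 (89.5 to 131). The log2 fold change of this gene was -0.056 (-0.45 to 0.33). Both intervals include 0. In the small columns, with 12 against 7 counts for RB1 and 7 against 10 for RBL2, the values were -0.60 (-2.23 to 0.82) and 0.62 (-0.89 to 2.28). RB1 was present in 105 of 113 large ethanol columns and 98 of 113 large Nutlin-3 columns, and RBL2 in 106 and 95. Summed over the 3 genes, the pools held 330 (ethanol) and 280 counts (Nutlin-3). Within that sum RBL1 took 25.8% in ethanol (21.1 to 30.8) and 21.4% in Nutlin-3 (16.8 to 26.7), RB1 38.8% and 39.6%, and RBL2 35.5% and 38.9%, and all 3 pairs of intervals overlapped.

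The D-type cyclins, which carry growth signals to CDK4 and CDK6, had small folds in their abundant members. CCND1 (ENSG00000110092, chromosome 11, 69641087 to 69654474) had 228 counts in the ethanol pool (199 to 260) and 236 in the Nutlin-3 pool (207 to 268). Its log2 fold change was 0.096 (-0.17 to 0.36). CCND3 (ENSG00000112576, chromosome 6, 41934933 to 42050357) had 88 counts in each pool, and its log2 fold change was 0.046 (-0.40 to 0.49). For these genes the pools overlapped. The intervals cover counting error only, so their ends do not bound the change. In large columns the ratio of variance to mean of CCND1 was 0.25 in ethanol and 0.48 in Nutlin-3. For CCND3 it was 0.37 and 0.30, where independent counting gives 1.

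CCND2 (ENSG00000118971, chromosome 12, 4273772 to 4305350) had 3 counts in ethanol (0.62 to 8.77) and 17 in Nutlin-3 (9.90 to 27.2). Relative to library size this is a ratio of 5.16, or a log2 fold change of 2.37 (0.76 to 4.96), and it rests on few counts. CCND2 passed the filter through the Nutlin-3 pool alone, where it was higher, so no direction is read from it. All of these counts came from large columns, 3 of 113 in ethanol (2.65%, 0.55 to 7.56) and 17 of 113 in Nutlin-3 (15%, 9.01 to 23.0), with 1 count in each. CCND2 contributed 0.94% of all D-type cyclin counts in ethanol (0.19 to 2.72) and 4.99% in Nutlin-3 (2.93 to 7.86). CCND1 took 71.5% and 69.2% of that sum and CCND3 27.6% and 25.8%, with intervals that overlapped between pools.

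The kinases differed in opposite directions, and over all columns neither fold could be told from 0. CDK6 (ENSG00000105810, chromosome 7, 92604921 to 92836594), a partner of D-type cyclins, had 214 counts in the ethanol pool (186 to 245) and 232 in the Nutlin-3 pool (203 to 264). The log2 fold change of this gene was 0.16 (-0.11 to 0.44). CDK2 (ENSG00000123374, chromosome 12, 55966769 to 55972784), the partner of E-type cyclins, had 102 counts in the ethanol pool (83.2 to 124) and 81 in the Nutlin-3 pool (64.3 to 101). Its log2 fold change was -0.28 (-0.73 to 0.15). In the small columns, where CDK2 did not pass the filter, 12 counts stood against 2 and the log2 value was -2.19 (-5.65 to -0.28). No direction is read from so few counts. In the large columns CDK2 had 90 and 79 counts and a value of -0.15 (-0.60 to 0.30). CDK6 also differed by class, with 0.057 (-0.26 to 0.38) in large columns and 0.53 (-0.016 to 1.10) in small ones, from 164 against 166 and 50 against 66 counts. Weighting each column equally, which gives the small columns more say, put CDK2 at -0.99 and CDK6 at 0.59. For CDK4, the other partner of D-type cyclins, the pools held 608 (ethanol) and 516 counts (Nutlin-3), and the value was -0.19 (-0.36 to -0.019).

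**Figure D3:**
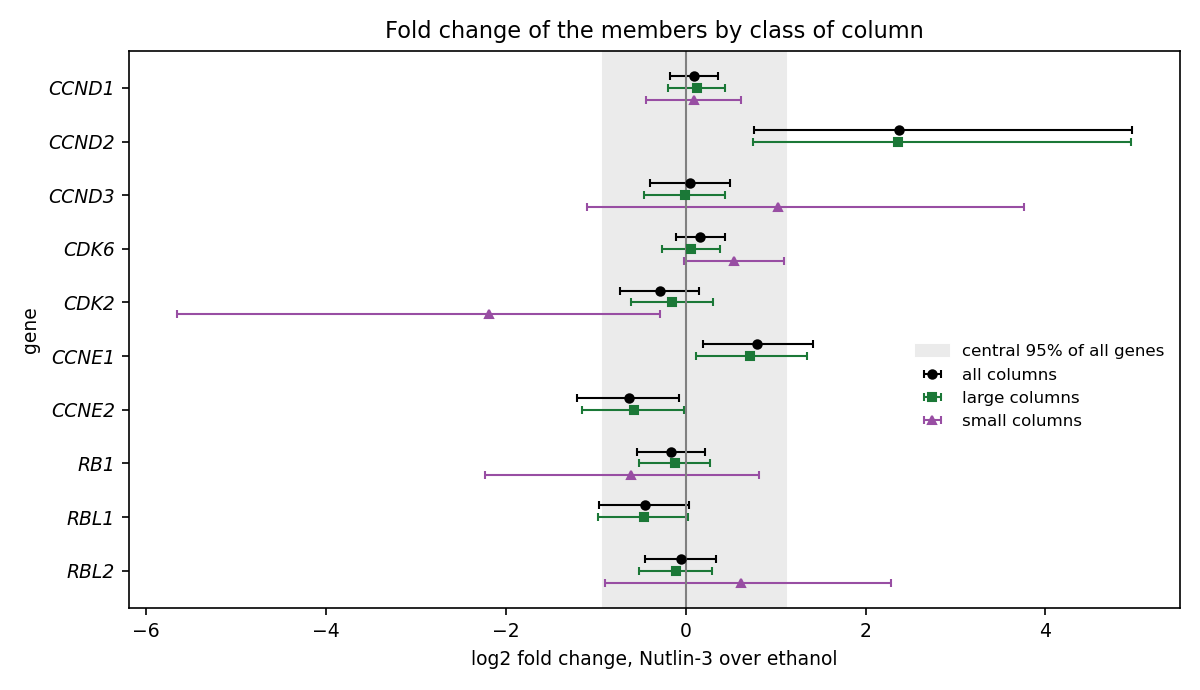
The horizontal axis gives the log2 fold change, with Nutlin-3 above ethanol to the right of 0, for each member in all columns (black circles), large columns (green squares) and small columns (purple triangles), with 95% counting intervals. The grey band spans the central 95% of the 14830 genes in all columns, from -0.92 to 1.12, and no small-column value is drawn where both pools had at most 3 counts.

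How counts were spread over columns limits these folds. CCND1 and CDK6 were present in 113 of 113 large columns of both treatments, so their presence could not differ there. Of the large columns, 67 in ethanol and 68 in Nutlin-3 held exactly 1 count of CCND1, and 74 in each did so for CDK6. RB1 was at exactly 1 count in 98 ethanol and 92 Nutlin-3 large columns, and RBL2 in 102 and 91. Over the large columns the ratio of variance to mean ran from 0.10 for RBL2 in ethanol to 0.98 for CCND2 in ethanol, where independent counting gives 1. The counting intervals assume independent counting, so for members far below 1 they do not describe the spread between columns. The highest value of any member in a large column was 7, for CCND1 in Nutlin-3. Among all genes, 91.8% of the nonzero values in large ethanol columns and 92.5% in large Nutlin-3 columns were equal to 1. Where a column seldom holds more than 1 count of a gene, its sum follows the number of columns that hold the gene. For a gene held by most columns, such as RB1 or RBL2, a small fold therefore does not show an equal level.

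Presence was also compared at equal depth, with each column thinned at random to 700 human counts. This kept 194 ethanol and 187 Nutlin-3 columns and left out 56 and 63. CCNE1 was then present in 0 of 194 ethanol columns, which allows a share of up to 1.55% (3 of 194; exact upper bound 1.88%), and in 7 of 187 Nutlin-3 columns (3.74%, 1.52 to 7.56). Thinned to 350 counts, CCNE1 was in 4 of 241 ethanol columns (1.66%) and 3 of 231 Nutlin-3 columns (1.30%), so the order turned. CCNE2 was in 6 of 194 (3.09%) and 3 of 187 (1.60%), and RBL1 in 6 of 194 (3.09%) and 0 of 187, which allows up to 1.60% (3 of 187; exact upper bound 1.95%). These limits concern columns with a count after thinning, not columns that express the gene. CDK2 was in 14 of 194 (7.22%, 4.0 to 11.8) and 3 of 187 (1.60%, 0.33 to 4.62). CCND1 was in 16.5% and 14.4%, and CDK6 in 17.0% and 16.6%. RB1 was in 6.70% and 4.81%, RBL2 in 3.61% and 7.49%, CCND3 in 0.52% and 3.74%, and CCND2 in 0 and 1 columns. Without thinning, over 250 columns each, the share with CCNE1 was 15.2% (ethanol) and 25.6% (Nutlin-3), with CCNE2 27.6% and 18.0%, with RBL1 33.2% and 23.6%, and with CDK2 39.6% and 30.8%. For the others it was 70.0% and 68.8% (CCND1), 1.20% and 6.80% (CCND2), 33.2% and 34.4% (CCND3), 64.0% and 71.6% (CDK6), 46.8% and 42.0% (RB1), and 45.2% and 42.0% (RBL2). Thinned shares of CCNE1, CCNE2, RBL1, CCND2 and CCND3 rest on 7 columns or fewer, and no change is read from them. With 1 line and no cell type known to lack these genes, the level set by free RNA could not be measured.

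The other genes of the pathway were described by list. Of 7 CDK inhibitors, 4 were lower and 3 higher (50.3% of all genes were lower, here and for the lists that follow), with a median log2 fold change of -0.028. CDKN1A, which inhibits CDK2 complexes, was higher in Nutlin-3 by 1.46 (1.07 to 1.89). CDKN1C (p57) was at 0.19 (-0.20 to 0.59) and CDKN1B (p27) at -0.028 (-0.38 to 0.32). The INK4 inhibitor CDKN2D (p19), which binds CDK4 and CDK6, was at -0.44 (-0.92 to 0.025). CDKN2C (p18), of the same family, was named after its values were seen, with 48 counts against 22 and a value of -1.06 (-1.88 to -0.32).

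Among 10 E2F and DP genes, which pair to bind the promoters that pocket proteins control, 7 were lower and 3 higher, and the median was -0.15. E2F2, an activator, was lower, with 126 counts against 86 and a value of -0.50 (-0.92 to -0.098). In large columns alone E2F2 was at -0.40 (-0.83 to 0.016), an interval that includes 0, and in small columns 13 counts stood against 3. E2F6 was at -0.30 (-0.73 to 0.12) and E2F1 at -0.22 (-0.63 to 0.19), intervals that include 0. E2F3, E2F4 and E2F5 were the 3 higher genes, by at most 0.10. E2F8, a repressor without a DP partner, was named after its values were seen. Its counts were 81 and 22, its log2 value was -1.81 (-2.59 to -1.14), and it was present in 75 and 22 of 113 large columns. E2F letters were in 4 of 11 windows of this list (E2F1, E2F2, E2F3 and TFDP1).

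Regulators of kinase activity and cyclin turnover, 12 genes with CDK4 among them, had small folds. Where most columns hold such a gene, a small fold does not show an equal level. In this list 9 were lower and 3 higher (AMBRA1, FBXW7 and GSK3B, which act in cyclin breakdown), with a median of -0.040 and a range of -0.32 to 0.15. CDC25A, the phosphatase that activates CDK2, was at -0.32 (-0.70 to 0.061) and CKS1B at -0.28 (-0.62 to 0.055). Of 6 genes of the MuvB core and its partner MYBL2, 4 were lower, and the median was -0.26. LIN54, the DNA-binding subunit, was at -0.36 (-0.82 to 0.10), MYBL2 at -0.35 (-0.71 to 0.0074) and LIN52 at -0.32 (-0.83 to 0.17).

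The 22 S phase entry genes, most of them textbook E2F targets, were the one list on a single side. All 22 were lower in Nutlin-3, against 50.3% of all genes, with a median of -0.29 and a range of -0.77 to -0.035. The list was chosen with earlier results of these data known, so its single side is a description and not an independent result. CCNA2, the cyclin that follows the E-type cyclins on CDK2, was at 196 and 149 counts, a value of -0.35 (-0.67 to -0.035). TK1, a thymidine kinase, was at -0.40 (-0.80 to -0.019), the polymerase gene POLA1 at -0.41 (-0.88 to 0.047) and the helicase gene MCM5 at -0.39 (-0.82 to 0.034). In large columns alone CCNA2 was at -0.23 (-0.59 to 0.13) and TK1 at -0.30 (-0.71 to 0.10), intervals that include 0. E2F letters were in 10 of 28 windows of these genes (35.7%, against 2.79% of all windows). Most of the genes were listed as E2F targets, so this share is no separate result. Of the members, CCNE2 was lower (-0.63), as was RBL1 (-0.45, with an interval that includes 0). CCNE1 (0.79), also a textbook E2F target, was higher. The window of CCNE1 held 0 E2F matches, and CCNE2 had no window. The part of E2F in these values was not tested. The median of the list was -0.19 in large columns and -0.74 in small ones. In small columns genes such as TK1 (16 counts in ethanol, 5 in Nutlin-3) passed the filter through the ethanol pool alone, which pushes that median down.

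**Figure D4:**
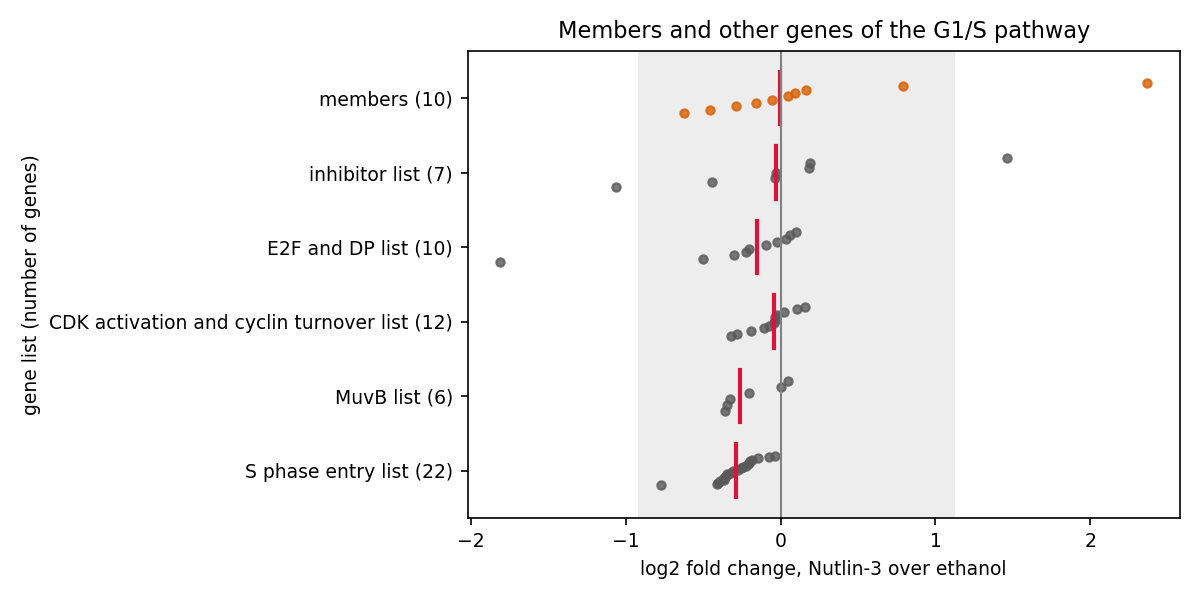
The horizontal axis gives the log2 fold change, positive where Nutlin-3 was higher, for each gene of the members (orange) and of 5 pathway lists (grey), with the number of genes in brackets, red bars at the medians and the central 95% of all genes as a grey band. The members spread from -0.63 to 2.37, the highest being CCND2, which passed the filter through the Nutlin-3 pool alone. The 22 S phase entry genes all lie below 0.

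Overlapping genes could add reads to some members, since the use of strand in counting is not given in the sources used here. In GENCODE, 7 of the 10 members overlap another gene that was counted. CDK2 overlaps PMEL, a gene of the opposite strand with 108 (ethanol) and 106 counts (Nutlin-3). CCNE2 overlaps INTS8 (80 and 84) and NDUFAF6 (148 and 154), also on the opposite strand. CCND1 overlaps LTO1 (116 and 115), and CDK6 overlaps AC002454.1 (39 and 61). CCNE1, CCND2 and CCND3 overlap no other counted gene. The part of these overlaps in the values was not tested.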

How the data were processed

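The deposited table gives, per the file headers, Ensembl identifiers in rows and columns named by bases and treatment, and its values are whole-number counts that the authors deposited without scaling. Polyadenylated RNA was read with the SureCell WTA 3' kit on the ddSeq device, per the labels' protocols. The sources used here do not name the aligner, genome build, annotation, strand setting, cell filter or use of molecular tags. Columns named treated were taken as Nutlin-3 and those named untreated as ethanol, 250 each, with 0 columns unassigned.

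Counts were summed per treatment without the 62 ERCC species. Scaling used TMM factors (edgeR 4.0.16, R 4.3.3), and the edgeR filter with a minimum count of 10 kept 14830 genes. Fold changes add 0.5 counts. Intervals are exact (scipy 1.17.1, 95%) if counts are independent, and cover counting error only. The code was tested on simulated sums drawn as independent Poisson counts. That test cannot show that the intervals hold for columns that depart from such counting. Identifiers of 25602 genes were found in GENCODE release 29 (GRCh38), which gave symbols and positions and need not be the authors' build. Counts were not divided by transcript length, since the kit reads 3' ends, and levels were not compared between genes.

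The 10 members, CDK4, CDKN1A, CDKN1B, E2F1, CCNA2 and MDM2 were named whatever their values, with up to 3 genes per pathway list that had the largest absolute fold change at a mean of at least 50 CPM. The members and lists were chosen with earlier results of these data known. Alternatives were other scalings (DESeq2 1.42.0 size factors, total counts, ERCC counts), 1 count added, no filter, thinned sums and other choices of columns. The value of 4000 counts that separates large from small columns was set after a gap in the totals had been seen. Doublets were not sought, the cells being of 1 line.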

Additional observations from a re-analysis of the deposited data

How the results depend on the processing

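No paired analysis was possible because column names do not tell the libraries apart, and for the same reason none of them could be left out. Under 11 alternatives the members gave 106 fold changes, of which 92 fell inside the counting interval first reported and 14 outside. Of the 14, 6 came with ERCC scaling, 5 in small columns and 3 with columns weighted equally. The members past a log2 fold change of 0.5 (CCND2, CCNE1 and CCNE2) did not change sign. Small columns held too few counts of these genes for a fold, so that setting could not turn them. Alternatives such as DESeq2 factors, total counts and no filter reuse the same sums at nearly the same scaling. They could hardly move a fold, so the 92 are not independent support. The number of members lower in Nutlin-3 was 8 with ERCC counts as library size, where 89.7% of all genes were lower, and in small columns 2 of the 6 with over 3 counts in a pool, or 1 of the 4 past the filter. ERCC scaling, which subtracts one constant from every gene, gave medians of -0.47 for the members, -0.62 for E2F and DP genes, -0.51 for kinase activation and turnover, -0.73 for MuvB and -0.76 for S phase entry genes. Small columns gave -0.52 for E2F and DP, -0.67 for MuvB and -0.74 for S phase entry genes, from 3, 2 and 18 genes that passed the filter. In the opposite direction, they gave 0.72 for the 4 inhibitors that passed and 0.31 for the members. Some of these genes passed in small columns only through the pool where they were higher. Among them were CDKN1A and CDKN1C (Nutlin-3) and E2F2, MYBL2 and TK1 (ethanol). Such a filter pushes values away from 0, so no difference between classes of column is read from the small-column medians. Equal weight of columns gave -0.60 for MuvB and -0.68 for S phase entry genes, and large columns -0.19 for the latter. The cause was not tested.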

Other observations

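Large columns of the 2 treatments carry the same 113 names, which allows presence to be laid side by side by name. A shared name does not show that the cells were the same or paired. CCNE1 was present in both treatments under 26 names, in Nutlin-3 alone under 35, in ethanol alone under 12 and in neither under 40. CCNE2 gave 27, 18, 39 and 29, and RBL1 45, 13, 37 and 18. For CCND2 no name held the gene in both, and 17 held it in Nutlin-3 alone and 3 in ethanol alone. CCND3, with equal sums, was in Nutlin-3 alone under 20 names and in ethanol alone under 19. CDKN1A was in Nutlin-3 alone under 47 names and in ethanol alone under 0, and E2F8 under 8 and 61.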
